A study of Drosophila melanogaster with 36 samples.

Results

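*CG16704*, *CG6495*, *Cyt-b5-r*, *CG10157* and *CG11842* are 5 genes of the 16727 in the count table of indirect flight muscle (IFM) that were higher under time-restricted feeding (TRF) than under ad libitum feeding (ALF) in flies on a high-fat diet (HFD). The 5 genes were chosen by this difference in an earlier fit of the same libraries, so their values in that contrast are a description and carry no test. IFM, the muscle that powers the wing beat, was taken from pools of 10 female *Drosophila melanogaster* at 3 weeks of age. WT flies were Canton-S on the normal diet, HFD flies were Canton-S on the normal diet with 5% coconut oil, and *Sk2* flies carried a mutation of *Sphingosine kinase 2* and were fed the normal diet. Food was present for 24 h a day under ALF and for 12 h of daytime under TRF, where an agar vial replaced it at night. All flies lived in a cycle of 12 h light and 12 h dark. Collection ran every 4 h, at zeitgeber times (ZT, hours after lights on) 3, 7, 11, 15, 19 and 23, with a single library per group and time. The ZT11 library of WT-TRF and the ZT23 library of *Sk2*-ALF were not in the study's own analysis, so 34 of 36 libraries were used here, 5 in WT-TRF and *Sk2*-ALF and 6 in the other groups. No labels say that *Sk2* flies share the Canton-S background, so strain and mutation cannot be told apart in comparisons with *Sk2*.

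The annotated genes among the 5 belong to different protein families. Kunitz-type inhibitors are small secreted proteins that block serine proteases by filling the active site. Trypsin-like serine proteases of the fly act in digestion and, in the blood, in cascades that activate the Toll receptor and melanization. GILT proteins reduce disulfide bonds in lysosomes, and cytochrome b5 domains carry electrons to membrane enzymes such as fatty acid desaturases.

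On the dm6 build, *CG16704* (FBgn0031558), a Kunitz-type inhibitor, lies on the minus strand of chromosome 2L from 3692123 to 3692587, with 350 exon bases in 2 parts. *CG6495* (FBgn0027550), for which no role is named here, lies on the plus strand of 2L from 10761116 to 10764971, with 2581 exon bases in 6 parts. *Cyt-b5-r* (FBgn0000406), a cytochrome b5-related protein, lies on the minus strand of 2L from 16788774 to 16790721, with 1557 exon bases in 3 parts. *CG10157* (FBgn0039099), now named *GILT2*, lies on the plus strand of 3R from 23678895 to 23679855, with 712 exon bases in 4 parts. *CG11842* (FBgn0039629), a trypsin-like serine protease, lies on the plus strand of 3R from 29052680 to 29053913, with 1118 exon bases in 3 parts.

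Levels are given as CPM, the counts of a gene scaled to its library's total after TMM normalization, and FPKM divides them by exon length. Library totals ranged from 3329519 to 30682673 counts, from 7647675 to 18777695 in HFD-ALF and from 12017403 to 30682673 in HFD-TRF. The 5 genes all passed the filter on low counts, as did 9996 genes in all, and the lowest count of any of them in the libraries used was 34. The *Sk2* gene itself held 1.11 to 5.48 CPM in *Sk2* libraries and 4.94 to 16.4 CPM in the others. The 8 flight muscle markers summed to 11915 to 38002 CPM and the 8 fat body markers to 10817 to 69931 CPM. The libraries thus hold much RNA of the listed fat body genes beside that of muscle. Of that list the highest values were those of *Yp1* (up to 24822 CPM), *Yp2* (19801), *apolpp* (16304) and *Yp3* (13871). Whether all of this RNA came from fat body was not tested. In such bulk samples, fewer cells of a type and less RNA per cell cannot be told apart. Time points stand in for replicates, so a p-value here measures the spread between pools collected at different times of day.

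Per exon length, *Cyt-b5-r* had the highest mean of the 5 genes in all 6 groups. In WT-ALF their mean levels were 261 ± 78.1 FPKM for *Cyt-b5-r*, 87.8 ± 18.7 for *CG16704*, 35.2 ± 7.98 for *CG10157*, 12.0 ± 1.40 for *CG6495* and 7.25 ± 1.45 for *CG11842* (SD, n = 6). *CG11842* thus had the lowest mean in WT-ALF, as it did in WT-TRF (11.7 FPKM, against 18.6 for *CG6495*). In the 4 HFD and *Sk2* groups *CG6495* had the lowest mean, for example 5.23 FPKM in HFD-ALF, where *CG11842* held 9.94 FPKM.

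In HFD flies the 5 genes, chosen for it, were 1.96 to 2.67 times as high under TRF as under ALF, and the size of the gap varied by time point. *CG16704* held 11.2 CPM at ZT3, 12.4 at ZT7, 20 at ZT11, 14.4 at ZT15, 13.8 at ZT19 and 20.2 at ZT23 in HFD-ALF. In HFD-TRF it held 43.7, 25.3, 48.1, 44.9, 49.4 and 32.3 CPM at the same times. Every HFD-TRF library was above every HFD-ALF library, and the log2 fold change was 1.40 (SE 0.271).

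*Cyt-b5-r* held 172, 224, 245, 175, 202 and 234 CPM from ZT3 to ZT23 in HFD-ALF and 601, 275, 527, 366, 484 and 321 CPM in HFD-TRF. Its groups did not overlap either, with a log2 fold change of 1.04 (SE 0.189). The gap was widest at ZT3 (1.81 on the log2 scale) and narrowest at ZT7 (0.30). Of all 9996 genes tested, 0.200% had every HFD-TRF library above every HFD-ALF library, in the libraries that chose the members.

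*CG10157* held 13.2, 20.4, 16.3, 8.16, 9.74 and 12.3 CPM in HFD-ALF and 32.4, 40.6, 30.5, 20.9, 27.8 and 17 CPM in HFD-TRF, from ZT3 to ZT23. TRF was above ALF at each of the 6 times, but the groups overlapped, since HFD-TRF at ZT23 was below HFD-ALF at ZT7. The log2 fold change was 1.09 (SE 0.208). *CG6495* held 14.2, 17.3, 9.93, 12.6, 16.6 and 10.3 CPM in HFD-ALF and 31.5, 18.7, 21.1, 32.7, 38 and 16.3 CPM in HFD-TRF. It was higher under TRF at 6 of 6 times by 0.11 (ZT7) to 1.36 (ZT15) on the log2 scale, with a fitted log2 fold change of 0.97 (SE 0.188), and 2 HFD-ALF libraries exceeded the lowest HFD-TRF library.

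*CG11842* held 10.5, 21.1, 7.87, 5.17, 7.19 and 14.9 CPM in HFD-ALF and 29.7, 21.9, 20.1, 29.4, 39.5 and 36.2 CPM in HFD-TRF. The difference was 2.47 at ZT15 and 2.44 at ZT19 on the log2 scale, and 0.05 at ZT7, where HFD-ALF was at its highest. Its log2 fold change over all times was 1.42 (SE 0.243), and without HFD-ALF at ZT7 it was 1.70.

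**Figure D1:**
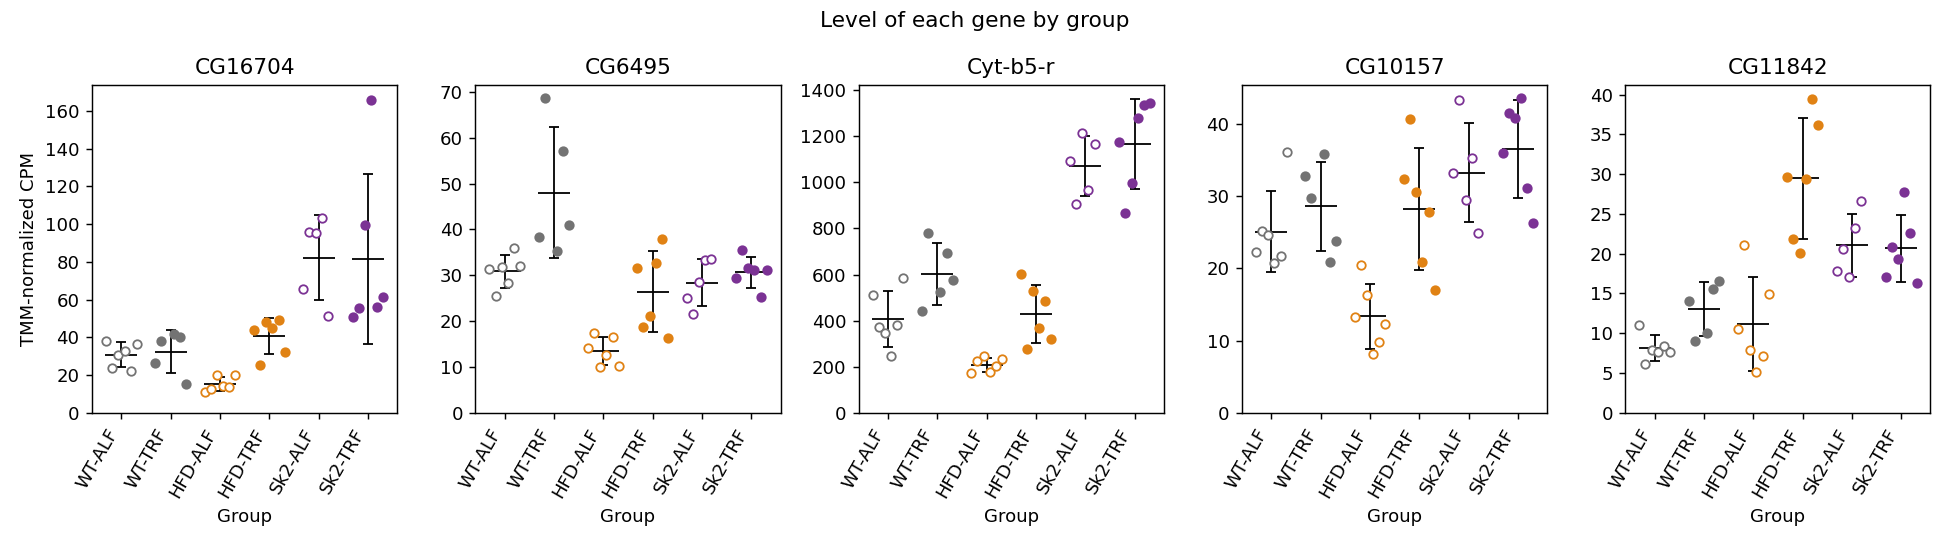
TMM-normalized CPM (vertical axis, from 0) of the 5 genes in each library of the 6 groups (horizontal axis), with open points for ALF and filled points for TRF, ordered by time point within a group, and bars for the mean and SD. The HFD-ALF points of *CG16704* (11.2 to 20.2 CPM) and *Cyt-b5-r* (172 to 245 CPM) lie below all HFD-TRF points.

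At an adjusted p under 0.05, 6 genes, 0.0600% of those tested, were higher under TRF in HFD flies, and they were the 5 genes together with *CG6385*, or *Sardh*, which encodes sarcosine dehydrogenase. *Sardh* differed by 1.28 on the log2 scale and was higher at 5 of 6 times. In the edgeR fit used here, their adjusted p inside the limit was between 0.0202 (*CG11842*) and 0.0244. Just outside it, at 0.0588 to 0.0699, were *Dip3* (log2 fold change -2.87), the purine synthesis gene *Prat2* (1.21), *Idgf5* (0.76), the gustatory receptor *Gr63a* (-2.67), *CG15546* (1.09) and *Tep2* (0.87). These values rest on the libraries in which the genes were chosen and support nothing further. The number of genes called higher was 0 over all 36 libraries. With DESeq2 it was 27, of 52 called in either direction. It was 66 without HFD-ALF at ZT7, 10 without HFD-TRF at ZT7, 3 without HFD-ALF at ZT23, and 0 without HFD-ALF at ZT3, HFD-ALF at ZT15, HFD-TRF at ZT3 or HFD-TRF at ZT19.

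The libraries of WT and *Sk2* flies took no part in the choice. In WT flies, 0 of the 5 genes passed an adjusted p of 0.05 between TRF and ALF, and 3 had an unadjusted p under 0.05, all higher under TRF. Over all genes tested, 0% passed with edgeR (774 at an unadjusted p under 0.05), and with DESeq2 1 gene passed, none of the 5. The study's own threshold asked for a level at least 25% higher and an unadjusted p no larger than 0.05. The study applied it to DESeq2 results, and here it was applied to the edgeR fit. By it, 3 of the 5 genes were higher in WT, against 2.72% of all genes. This count is without WT-TRF at ZT11. With the left-out libraries put back, the WT log2 fold changes of all 5 genes were lower.

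*CG6495* held 25.4 to 36 CPM in WT-ALF (median 31.6) and 38.3, 68.6, 35.4, 57.1 and 40.9 CPM in WT-TRF at ZT3, ZT7, ZT15, ZT19 and ZT23. It was higher under TRF at 5 of 5 times and the groups overlapped by 1 library. The log2 fold change was 0.64 (SE 0.195, adjusted p = 0.379 by edgeR's quasi-likelihood test with Benjamini-Hochberg adjustment). *CG11842* held 6.08 to 11 CPM in WT-ALF (median 7.79) and 14, 9.02, 9.99, 15.6 and 16.6 CPM in WT-TRF. It too was higher at 5 of 5 times, by 0.67 (SE 0.261, adjusted p = 0.526).

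*Cyt-b5-r* held 246 to 584 CPM in WT-ALF (median 376) and 443, 782, 523, 692 and 575 CPM in WT-TRF. It was higher under TRF at 3 of 5 times, and at ZT3 and ZT23 it was lower by 0.21 and 0.02 on the log2 scale. The log2 fold change was 0.57 (SE 0.195, adjusted p = 0.428). The remaining genes had smaller values, 0.19 (SE 0.217) for *CG10157* and 0.08 (SE 0.281) for *CG16704*, each higher at 3 of 5 times. For *CG16704* the interval of the difference ran from -0.50 to 0.65 at 95% confidence. Its WT-TRF libraries spread from 15.5 CPM at ZT23 to 41.9 CPM at ZT15.

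In *Sk2* flies, 0 of the 5 genes passed between TRF and ALF with edgeR or DESeq2, and 0 had an unadjusted p under 0.05. Over all genes 0.0800% passed an adjusted p of 0.05 with edgeR. By the study's threshold, applied to the edgeR fit, 2.79% were higher, and 0 of the 5 reached it. The log2 fold changes were -0.01 (SE 0.275) for *CG16704*, 0.11 (0.194) for *CG6495*, 0.13 (0.196) for *Cyt-b5-r*, 0.13 (0.213) for *CG10157* and -0.03 (0.248) for *CG11842*. Their 95% intervals reached at most 0.57 above 0, at *CG10157*, on the log2 scale.

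**Figure D2:**
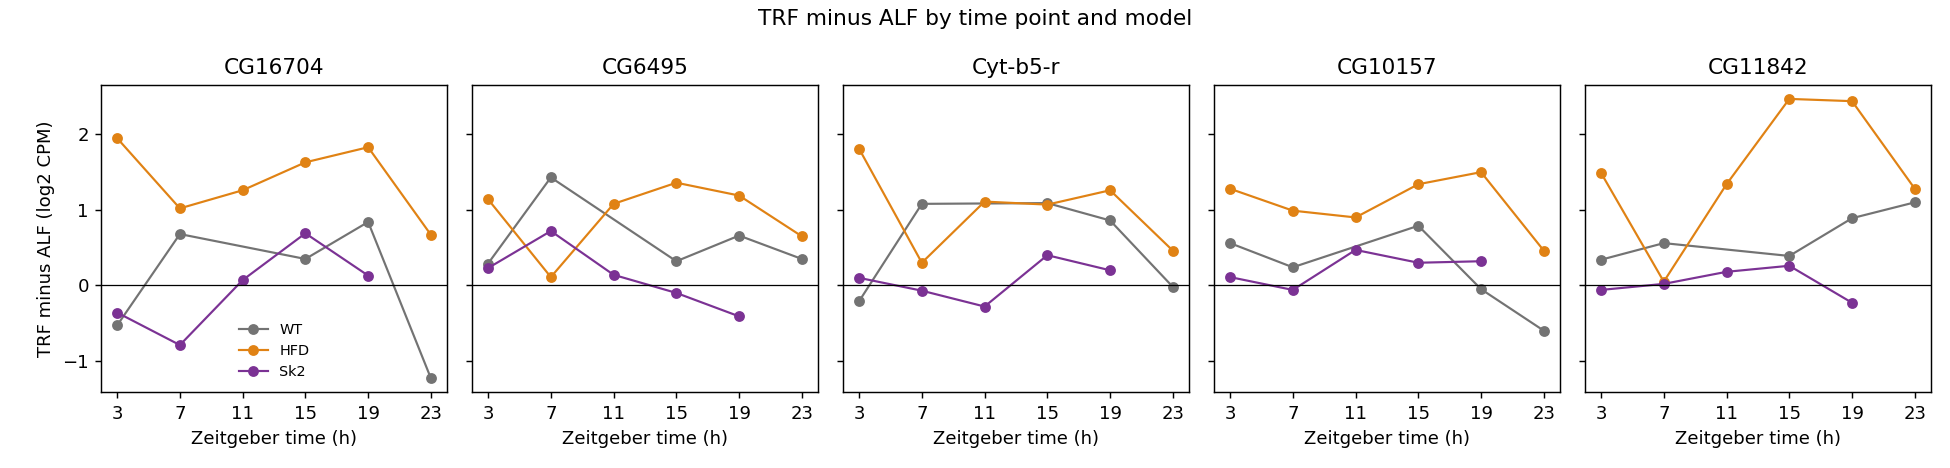
Difference of log2 CPM between TRF and ALF (vertical axis) at each zeitgeber time (horizontal axis, hours) in WT (grey), HFD (orange) and *Sk2* (purple) flies, 1 pair of libraries per point. The HFD line lies above 0 at all 6 times for each gene and comes within 0.11 of 0 at ZT7 for *CG6495* and *CG11842*.

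The difference of the TRF effect between *Sk2* and WT was tested as an interaction, and 0 of the 5 genes passed with edgeR or DESeq2. None had an unadjusted p under 0.05, although *CG11842* (-0.70, SE 0.359, adjusted p = 0.736) and *CG6495* (-0.53, SE 0.275, adjusted p = 0.736) came nearest. Of all genes 0.0100% passed. The difference between HFD and the other models was not tested, because the HFD libraries chose the genes.

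Under ALF, 4 of the 5 genes were lower in HFD than in WT flies, and *CG11842* was not. This comparison shares the HFD-ALF libraries with the choice of the genes, which favours genes that were low there, so it is a description. *CG16704* held 38.3, 23.8, 30.4, 32.9, 22.4 and 36.6 CPM in WT-ALF from ZT3 to ZT23. All 6 values exceeded the highest HFD-ALF value, 20.2 CPM, and the log2 fold change of HFD against WT was -1.0 (SE 0.271). *CG6495* held 31.3, 25.4, 31.8, 28.4, 36 and 32.1 CPM in WT-ALF against at most 17.3 CPM in HFD-ALF, a log2 fold change of -1.19 (SE 0.190).

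For *Cyt-b5-r* the lowest WT-ALF library (246 CPM, ZT15) was just above the highest HFD-ALF library (245 CPM, ZT11), and the log2 fold change was -0.96 (SE 0.189). For *CG10157* the lowest WT-ALF library held 20.7 CPM and the highest HFD-ALF library 20.4 CPM, with a log2 fold change of -0.92 (SE 0.209). Of all genes, 1.91% had every HFD-ALF library below every WT-ALF library. *CG11842* overlapped between the groups and differed by 0.44 (SE 0.248), higher in HFD flies at 2 of 6 times. Without HFD-ALF at ZT7 that value was 0.16.

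Beside these values, the summed fat body markers were 13576 to 28739 CPM in HFD-ALF (median 20508) and 28139 to 48477 CPM in WT-ALF (median 31337). No fat body marker was at 0 in all libraries of WT-ALF, and 1 was in HFD-ALF. With the logarithm of this sum as a covariate, the log2 fold changes of HFD against WT under ALF were -0.86, -1.07, -0.78, -0.74 and 0.39 in the order *CG16704*, *CG6495*, *Cyt-b5-r*, *CG10157* and *CG11842*. Of all 9996 genes tested, 1659 passed an adjusted p of 0.05 between HFD and WT flies under ALF. All 5 neuron markers were higher in HFD-ALF (123 to 577 CPM summed) than in WT-ALF (88.1 to 157 CPM), 4 of them at an adjusted p under 0.05. Hemocyte markers summed to 518 to 751 CPM in HFD-ALF and 599 to 1070 CPM in WT-ALF. Of 7 tested, 1 was lower in HFD-ALF at an adjusted p under 0.05, and 4 were lower with the diet averaged over regimens, where 25.4% of all genes passed (*Hml*, *NimC1*, *eater* and *Pxn*). Of 3 ovary markers tested, 2 were lower in HFD-ALF, with the 7 listed summing to 1.41 to 4.17 CPM there and 4.06 to 789 CPM in WT-ALF. The part of these markers in the values of the 5 genes was not tested.

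Between TRF and ALF in HFD flies the summed fat body markers overlapped (10817 to 43755 CPM in HFD-TRF), 0 of 7 tested passed with edgeR, and 1 had an unadjusted p under 0.05. With the covariate the TRF log2 fold changes were 1.36, 0.94, 0.98, 1.08 and 1.43 in the same order of genes. The neuron markers summed to 72.7 to 263 CPM in HFD-TRF. They were lower than in HFD-ALF with an unadjusted p under 0.05 for 4 of 5, and 0 passed the adjusted threshold. With counts thinned to the total of the shallowest library, the TRF log2 fold changes were 1.24, 1.02, 1.0, 0.99 and 1.29.

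The log2 fold change of HFD against WT flies lay nearer to 0 under TRF than under ALF for 4 of the genes and further from it for *CG11842*. Between HFD-TRF and WT-TRF the log2 fold change was 0.32 (SE 0.280) for *CG16704*, -0.03 (SE 0.215) for *CG10157* and -0.49 (SE 0.195) for *Cyt-b5-r*. For *CG6495* it was -0.86 (SE 0.194), and HFD was lower than WT at 5 of 5 times. For *CG11842* it was 1.19 (SE 0.259), with every HFD-TRF library (20.1 to 39.5 CPM) above every WT-TRF library (9.02 to 16.6 CPM). These values share the HFD-TRF libraries with the choice and are descriptions.

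Set against WT-ALF flies, HFD-TRF flies had log2 fold changes of 0.40 (SE 0.266) for *CG16704*, -0.23 (SE 0.186) for *CG6495*, 0.08 (SE 0.187) for *Cyt-b5-r* and 0.17 (SE 0.205) for *CG10157*. This comparison too uses the HFD-TRF libraries that chose the genes. Its values are descriptions and do not test a return to the WT level. *CG11842* stood 1.86 (SE 0.250) higher, with 20.1 to 39.5 CPM in HFD-TRF and 6.08 to 11 CPM in WT-ALF and no overlap.

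Averaged over ALF and TRF, a contrast added after the values were seen, the diet effect still rests on the HFD libraries that chose the genes, and it is given as a description. HFD was below WT by this average for *CG6495* (log2 fold change -1.03, SE 0.136), *Cyt-b5-r* (-0.73, SE 0.135), *CG10157* (-0.47, SE 0.149) and *CG16704* (-0.34, SE 0.194), and above it for *CG11842* (0.82, SE 0.179). With the fat body covariate the values were -0.89, -0.54, -0.27, -0.19 and 0.76 in that order.

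In *Sk2* flies 3 of the 5 genes stood far above WT, in libraries that the choice did not use. Under ALF, *CG16704* held 65.4, 95.7, 95.2, 103 and 51.4 CPM in *Sk2* from ZT3 to ZT19, all above the highest WT-ALF value of 38.3 CPM. Its log2 fold change was 1.42 (SE 0.279, adjusted p = 0.000332). *Cyt-b5-r* held 1095, 908, 1216, 967 and 1166 CPM, all above the WT-ALF maximum of 584 CPM, with a log2 fold change of 1.40 (SE 0.197, adjusted p = 3.75e-06).

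*CG11842* held 17.8, 20.6, 17.1, 23.2 and 26.6 CPM in *Sk2*-ALF, all above the WT-ALF maximum of 11 CPM, and its log2 fold change was 1.38 (SE 0.256, adjusted p = 0.000172). *CG10157* was higher at 5 of 5 times but overlapped, at 0.41 (SE 0.214, adjusted p = 0.180). *CG6495* differed by -0.12 (SE 0.195, adjusted p = 0.708), with an interval from -0.52 to 0.28. Under ALF, 22.8% of all genes passed between *Sk2* and WT flies, and 6.05% had every *Sk2* library above every WT library. Beside these values, 3 of 8 flight muscle markers were lower in *Sk2* flies under ALF, *Act88F* (-1.71, adjusted p = 0.0186), *TpnC4* (-0.84, adjusted p = 0.0413) and *up* (-0.61, adjusted p = 0.0117), and their sum was 13127 to 33219 CPM in *Sk2*-ALF and 14785 to 36588 CPM in WT-ALF. The hemocyte markers *PPO1* (1.02, adjusted p = 0.0246) and *PPO2* (1.37, adjusted p = 0.0123), 2 of 7 tested, and the fat body marker *Mtp* (0.88, adjusted p = 0.000891), 1 of 7 tested, were higher. The hemocyte sums were 633 to 1076 CPM and 599 to 1070 CPM, and the part of these markers was not tested.

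Under TRF, *CG16704* held 50.9, 55.4, 99.6, 166, 56.1 and 61.2 CPM in *Sk2* flies from ZT3 to ZT23. The ZT15 library was the highest, and all were above the WT-TRF maximum of 41.9 CPM. The log2 fold change was 1.33 (SE 0.286, adjusted p = 0.000919), and 0.98 without *Sk2*-TRF at ZT15. *Cyt-b5-r* ranged from 867 to 1346 CPM (median 1228) against 443 to 782 CPM in WT-TRF, a log2 fold change of 0.95 (SE 0.199, adjusted p = 0.000686). *CG6495* was lower in *Sk2* than in WT flies at 5 of 5 times, at -0.65 (SE 0.194, adjusted p = 0.0140), and its groups overlapped by 1 *Sk2* library. Its call was lost over all 36 libraries (-0.45, adjusted p = 0.124), without WT-TRF at ZT7 (-0.45, adjusted p = 0.0868) and without WT-TRF at ZT19 (-0.55, adjusted p = 0.0512).

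*CG11842* missed the threshold under TRF at 0.68 (SE 0.256, adjusted p = 0.0515) with edgeR and passed with DESeq2 (adjusted p = 0.0287). It passed in 25 of 43 other fits, the time point block included (0.76, adjusted p = 0.0356), with adjusted p-values from 0.0252 to 0.124 over all fits. It was higher in *Sk2* flies at 4 of 5 times. *CG10157* did not pass, at 0.35 (SE 0.216, adjusted p = 0.258). Of all genes 24.9% passed under TRF, and 7.87% had every *Sk2* library above every WT library, which held for *CG16704* and *Cyt-b5-r*. Of 8 flight muscle markers under TRF, *Act88F* was lower (-3.09, adjusted p = 7.18e-05) and *fln* higher (0.92, adjusted p = 0.0140) in *Sk2* flies. Only 2 of the 8 values were above 0. Their sum was 11915 to 21664 CPM in *Sk2*-TRF and 20621 to 38002 CPM in WT-TRF. The fat body marker *Mtp* (0.62, adjusted p = 0.0166) and the hemocyte marker *eater* (0.61, adjusted p = 0.0357), each 1 of 7 tested, were higher. Above 0 were 4 of the 7 fat body and 6 of the 7 hemocyte values. The part of these markers was not tested.

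**Figure D3:**
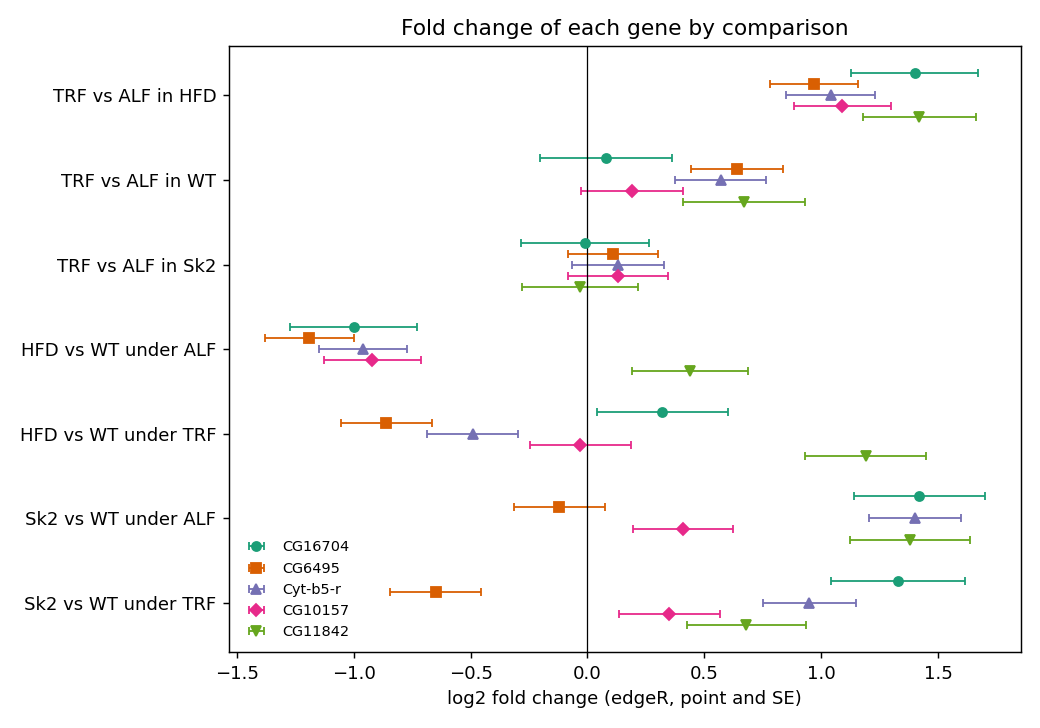
The log2 fold change (horizontal axis, point and SE from the edgeR fit) of the 5 genes in each comparison (vertical axis). The TRF values lie between 0.97 and 1.42 in HFD, between 0.08 and 0.67 in WT and between -0.03 and 0.13 in *Sk2*, and the HFD against WT values under ALF lie between -1.19 and -0.92 except for *CG11842* at 0.44.

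Ordered by mean level, the groups formed different sequences for the 5 genes. *CG16704* was highest in *Sk2*-ALF (82.2 ± 22.4 CPM, SD, n = 5) and *Sk2*-TRF (81.6 ± 45.1, n = 6), followed by HFD-TRF (40.6 ± 9.64, n = 6), WT-TRF (32.5 ± 11.3, n = 5), WT-ALF (30.7 ± 6.54, n = 6) and HFD-ALF (15.3 ± 3.84, n = 6). Only the steps from *Sk2*-TRF to HFD-TRF and from WT-ALF to HFD-ALF were free of overlap between neighbouring groups. *Cyt-b5-r* was highest in *Sk2*-TRF (1167 ± 196 CPM, n = 6) and *Sk2*-ALF (1070 ± 130.2, n = 5), then WT-TRF (603 ± 135, n = 5), HFD-TRF (429 ± 128, n = 6), WT-ALF (407 ± 122, n = 6) and HFD-ALF (209 ± 30.7, n = 6). Its neighbours overlapped except between *Sk2*-ALF and WT-TRF and between WT-ALF and HFD-ALF.

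*CG6495* was highest in WT-TRF (48.0 ± 14.2 CPM, n = 5), followed by WT-ALF (30.8 ± 3.61, n = 6), *Sk2*-TRF (30.6 ± 3.35, n = 6), *Sk2*-ALF (28.4 ± 5.23, n = 5), HFD-TRF (26.4 ± 8.82, n = 6) and HFD-ALF (13.5 ± 3.10, n = 6), and every neighbouring pair overlapped. *CG10157* ranked from *Sk2*-TRF (36.5 ± 6.74 CPM, n = 6) through *Sk2*-ALF (33.3 ± 6.87, n = 5), WT-TRF (28.6 ± 6.18, n = 5), HFD-TRF (28.2 ± 8.44, n = 6) and WT-ALF (25.1 ± 5.68, n = 6) to HFD-ALF (13.4 ± 4.44, n = 6), and only the last pair did not overlap. *CG11842* was the only one of the 5 with its highest mean in HFD-TRF (29.4 ± 7.64 CPM, n = 6), followed by *Sk2*-ALF (21.1 ± 3.92, n = 5), *Sk2*-TRF (20.7 ± 4.17, n = 6), WT-TRF (13 ± 3.37, n = 5), HFD-ALF (11.1 ± 5.93, n = 6) and WT-ALF (8.11 ± 1.62, n = 6), and every neighbouring pair overlapped.

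Time of day was examined across the 6 groups, since each group had 1 library per time. None of the 5 genes passed between night (ZT15 to ZT23) and day (ZT3 to ZT11) with edgeR or DESeq2, against 0.380% of all genes. *CG10157* came nearest, lower at night (log2 fold change -0.33, SE 0.110, adjusted p = 0.298), and it was the only member with an unadjusted p under 0.05. In a fit of a 24-h cosine it had a peak-to-trough difference of 0.53 on the log2 scale and a peak at ZT7.61. That gene did not pass with edgeR (adjusted p = 0.112) and passed with DESeq2 (adjusted p = 0.0444), and also with edgeR without WT-ALF at ZT23 (0.62, adjusted p = 0.0250).

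*CG10157* was above its group mean at ZT7 in 6 of 6 groups, by 0.33 ± 0.26 on the log2 scale (SD), and below it at ZT19 in all groups but 1. *CG16704* had a cosine peak at ZT13.5 with a peak-to-trough difference of 0.56 (adjusted p = 0.281), and was above its group mean at ZT11 in 5 of 5 groups and at ZT15 in 5 of 6. Of all genes 1.78% passed the cosine test, and 0 of the 5 members did with edgeR. The peak-to-trough values of *CG11842*, *Cyt-b5-r* and *CG6495* were 0.37, 0.21 and 0.14.

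**Figure D4:**
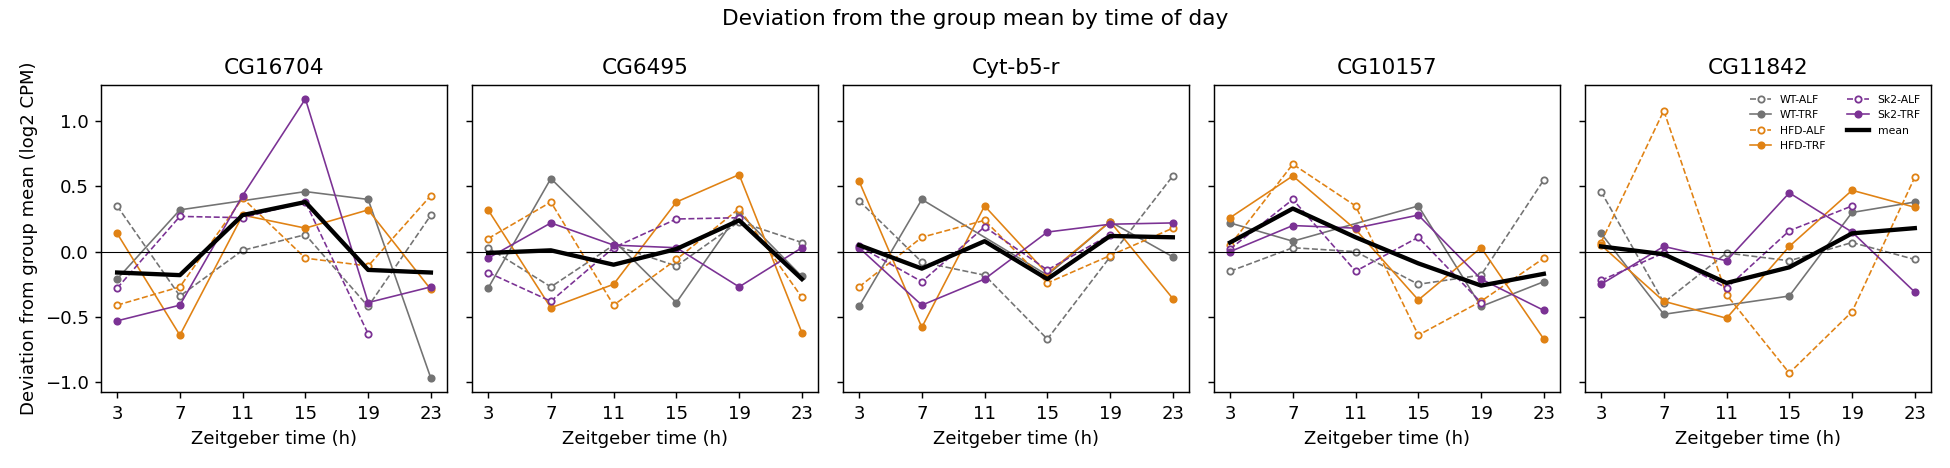
Deviation of log2 CPM from the mean of its group (vertical axis) at each zeitgeber time (horizontal axis, hours), with dashed lines for ALF, solid lines for TRF, colours for the models and a thick black line for the mean of the groups. The mean of *CG10157* is highest at ZT7 (0.33) and lowest at ZT19 (-0.26), and that of *CG16704* is highest at ZT15 (0.38).

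The TRF difference in HFD flies was also set out by window. The choice of the genes used these libraries and favoured genes that were higher under TRF throughout, so the values are a description. *CG11842* had a difference of 1.09 (SE 0.464) between the TRF log2 fold changes at night and by day, larger at night, of 0.58 without HFD-ALF at ZT7 and of 1.64 without HFD-ALF at ZT23. The other 4 genes had values from -0.19 to 0.35, with SEs of 0.349 to 0.574.

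Pairs of the 5 genes had a higher r over all libraries than within groups, except *CG6495* and *CG11842* (0.16 over all, 0.20 within groups). Over the 34 libraries, Pearson's r between pairs of the 5 genes ran from 0.16 (*CG6495* and *CG11842*) to 0.85 (*CG16704* and *Cyt-b5-r*), and after subtraction of group means from -0.07 to 0.34. Libraries share depth and normalization, and r over all libraries includes the HFD libraries that chose the genes. The values are a description. Within groups, r with the fat body sum was between -0.07 (*CG11842*) and 0.35 (*CG10157*), and r with the library total between -0.39 (*CG11842*) and 0.08 (*CG16704*).

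The genes most like each member were found by r over the 34 libraries after subtraction of group means. For *CG16704* the highest r was with *CG16713* (0.84), which is also on the list of Kunitz-type genes, and for *CG11842* with *CG11841* (0.75), its neighbour and a serine protease of the same list. *Cyt-b5-r* was most like *mino* (0.86), a glycerol-3-phosphate acyltransferase gene, *CG10157* was most like *CG16712* (0.73), another Kunitz-type gene, and *CG6495* was most like *Spps* (0.70). The next genes were *CG7966* (0.81) and *CG15293* (0.80) for *CG16704*, *CG10512* (0.75) and *Gel* (0.71) for *Cyt-b5-r*, and *CG17108* (0.69) and *Prp8* (0.67) for *CG6495*. They were *Bmcp* and *MP1* (0.71 each) for *CG10157*, and *CG15449* and *CG34159* (0.68 each) for *CG11842*.

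Without the subtraction, r also includes differences between groups, those of the HFD groups that chose the genes among them. *Cyt-b5-r* then followed *mino* (0.95), *CG18003* (0.94) and *Idgf5* (0.94), and *CG16704* followed *CG5390* (0.88), *Idgf5* (0.87) and the insulin-like peptide gene *Ilp6* (0.86). *CG10157* followed *CG14400* (0.83), *CG9780* (0.80) and *CG7611* (0.79), *CG6495* followed *CG14823* (0.76), *CG17108* (0.75) and *Hex-C* (0.75), and *CG11842* followed *SPE* (0.81), *CG11841* (0.79) and *Tep2* (0.75).

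The nearest genes on the chromosome were set beside the members for the TRF difference in HFD flies. Of the 20 neighbours, 2 on each side of each gene, 16 were tested and 0 passed between TRF and ALF in HFD flies. Of all genes 0.0600% passed, so a count of 0 among 16 says little about the neighbours. In the edgeR fit 3 had an unadjusted p under 0.05, as did 1397 of all 9996 genes. Above 0 were 13 of the 16 log2 fold changes, where the median over all genes was 0.03. The largest were *CG11841* (0.97, SE 0.249, adjusted p = 0.141), which ends 412 bases before *CG11842*, and *CG13822*, or *GILT3* (0.90, SE 0.255, adjusted p = 0.170), 473 bases before *CG10157*. *Mhc*, the myosin heavy chain gene, lies 7 bases from *Cyt-b5-r* on the other strand, held 1063 to 3768 CPM and differed by 0.06 (SE 0.202, adjusted p = 0.932). The counting setting was by strand, and whether reads of *Mhc* reached the count of *Cyt-b5-r* was not tested.

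Families of the 5 genes were followed through lists written with earlier results of these data known. Of 7 other Kunitz-type genes tested, 0 passed under TRF in HFD flies with edgeR and 3 had an unadjusted p under 0.05 (1397 of all 9996 genes did), while 7 of 7 log2 fold changes were above 0 (median 0.21, against 0.03 over all genes). The 3 were *CG3604* (1.21, SE 0.529), *CG16713* (0.79, SE 0.266) and *CG16712* (0.61, SE 0.219), at adjusted p-values of 0.304, 0.225 and 0.227. With the diet averaged over regimens, 25.4% of all genes passed. Among the Kunitz-type genes, *CG3604* (4.32, adjusted p = 5.28e-07), *CG16713* (0.72, adjusted p = 0.00665) and *CG16712* (0.48, adjusted p = 0.0252) were higher in HFD flies and *CG10031* (-0.41, adjusted p = 0.0328) was lower. *CG3604* was at 0 in 4 libraries, so its fold depends on the prior count.

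Of 9 other serine proteases of the *CG11842* cluster and of the Toll and melanization cascades, 0 passed under TRF in HFD flies and 5 had an unadjusted p under 0.05, beside 1397 of all 9996 genes. All 9 log2 fold changes were above 0, with a median of 0.74, against 0.03 over all genes. The HFD libraries chose *CG11842*, and *CG11841* and *SPE* were among the genes most like it. The 5 were *CG11841* (0.97), the Spätzle-processing enzyme *SPE* (0.95, SE 0.248), *Hayan* (0.95, SE 0.242), *Grass* (0.76, SE 0.236) and *MP1* (0.44, SE 0.144), with adjusted p-values of 0.141 to 0.207. In WT flies the median of the 9 was 0.40 and in *Sk2* flies 0.00, with 0 passing in either. With the diet averaged, 25.4% of all genes passed. Among these proteases, *Hayan* (1.38, adjusted p = 2.10e-06), *SPE* (1.12, adjusted p = 3.59e-05) and *CG11843* (1.10, adjusted p = 0.0171) were higher in HFD flies, and *modSP* (-0.52, adjusted p = 0.00357) and *psh* (-0.44, adjusted p = 0.00245) were lower.

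Of 12 other genes with cytochrome b5 or desaturase functions, 0 passed under TRF in HFD flies and 0 had an unadjusted p under 0.05, with a median of 0.06. The electron carrier gene *Cyt-b5* itself differed by 0.00 (SE 0.118) and the fatty acid desaturase *Desat1* by 0.16 (SE 0.166). With the diet averaged, 5 of the 12 were lower and 1 higher, where 25.4% of all genes passed. The 5 lower genes were *desatF* (-1.64, adjusted p = 0.0220), *CG15531* (-1.30, adjusted p = 0.0450), *CG6870* (-0.98, adjusted p = 0.0210), *CG17928* (-0.64, adjusted p = 2.06e-05) and *Desat1* (-0.42, adjusted p = 0.0101), and the higher gene was *ifc* (0.52, adjusted p = 0.00537), a sphingolipid desaturase.

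The GILT genes were added after the values were seen. *GILT1* differed by 0.22 (SE 0.145) and *GILT3* by 0.90 (SE 0.255) under TRF in HFD flies, neither at the adjusted threshold (0.518 and 0.170). In WT flies their log2 fold changes were 0.24 and -0.06, and in *Sk2* flies -0.16 and -0.04.

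The libraries that the study left out held low values of several of the 5 genes. WT-TRF at ZT11 held 12.6 CPM of *CG16704*, 16.8 of *CG6495*, 165 of *Cyt-b5-r*, 21.1 of *CG10157* and 1.91 of *CG11842*, below all other WT-TRF libraries except for *CG10157*. *Sk2*-ALF at ZT23 held 34.7, 22.4, 853, 28 and 14 CPM in the same order, below all other *Sk2*-ALF libraries for *CG16704*, *Cyt-b5-r* and *CG11842*. With both put back, the TRF log2 fold changes in HFD flies, whose own libraries stayed the same, were 1.39, 0.95, 1.02, 1.07 and 1.40. Those in WT flies were lower than in the main fit for all 5 genes, at -0.06, 0.49, 0.40, 0.15 and 0.47. For *CG6495*, *Cyt-b5-r* and *CG11842* the SEs were 0.225, 0.239 and 0.324. In *Sk2* flies the values were higher than in the main fit, at 0.15, 0.18, 0.19, 0.19 and 0.08.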

How the data were processed

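The authors deposited 1 table of unnormalized read counts, whole numbers for each gene in 36 libraries, with the exon length. Per the labels and file headers, single-end reads of 50 bases were aligned with STAR and counted with featureCounts 1.5.0-p1 over exons, on the reverse strand (setting 2), against a dm6 annotation. The sources name different STAR versions (2.5.3a in the submitters' processing notes) and builds, and gene positions are those of dm6.

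Groups came from the labels. Counts of 34 libraries were fitted in R 4.3.3 with edgeR 4.0.16 (filterByExpr by group, TMM, glmQLFit and glmQLFTest on 6 group means, with terms for night or a 24-h cosine where stated). The Benjamini-Hochberg adjustment of p-values ran over 9996 genes. FPKM used TMM-normalized CPM and the deposited exon length, and log2 CPM a prior count of 2. The shallowest library held 3329519 counts and the deepest 30682673. The precision of each value is given as the SE or SD between libraries. DESeq2 1.42.0 was an alternative, as were other normalizations, filters, library sets, a block for the time point, each library left out in turn, and, added after the values were seen, thinned counts and the fat body sum as a covariate.

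The 5 genes, the lists and the tests were chosen with earlier results of these data known. Neighbours, the 3 most similar genes by either measure of likeness and family members with an adjusted p under 0.05 were named by rule. Family lists were written by symbol, because no protein sequences were used here. The fit was tested on simulated data. For TRF against ALF in WT, with 9891 genes, it found 27 of 100 genes changed 1.5-fold and 75 of 100 changed 2-fold, with 4 other calls. The changed genes were drawn above a minimum mean count, so these rates do not cover genes of low count.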

Additional observations from a re-analysis of the deposited data

Results flagged for a closer look

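For each of the 5 genes, the highest and the lowest library of each group were set against the rest of that group by Dixon's test, which gave 30 groups of values, and 1 of them held a library far from the others. Chance alone sets such a library apart in about 1 in 20 groups. *CG10157* held 36.1 CPM in WT-ALF at ZT23, while the other WT-ALF libraries held 20.7 to 25.2 CPM. Without that library its TRF log2 fold change in WT was 0.35 in place of 0.19, and its log2 fold change of HFD against WT under ALF was -0.71 in place of -0.92.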

How the results depend on the processing

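Each comparison was refitted under 9 settings (7 for those of time) and 34 times with a library left out. By a fixed rule the 5 genes stayed the same in most of these fits (2677 values did, 56 changed sign, 27 passed the threshold newly, 3 no longer passed it and 2 moved by more than the spread between libraries). The cause was not tested for those that did not. In tested comparisons the rule asked for the same direction and side of the threshold. In comparisons given as descriptions it asked for a value within the spread between libraries. A small value there could change sign and still count as the same. *CG10157* between HFD-TRF and WT-TRF did so, at -0.03 in the main fit and up to 0.20 over the settings. Over all 36 libraries, the number of genes called was 0 for TRF in HFD (higher), 1 for TRF in *Sk2*, 188 for the difference of TRF effects between *Sk2* and WT, 14 for night against day and 80 for the cosine. With DESeq2 these numbers were 27, 23, 8, 102 and 448, with 1 for TRF in WT and 1 of the 5 genes for the cosine. With 32 libraries, that is also without WT-ALF at ZT11 and *Sk2*-TRF at ZT23, they were 1 for TRF in WT, 2 for TRF in *Sk2* and 0 for the difference of TRF effects. For TRF in *Sk2* the number was 0 with at least 10 counts in every library, 0 with the time point block, 3 with thinned counts and 3 with the fat body covariate. For the difference of TRF effects it was 0 without a filter, with at least 10 counts, with the block and with thinned counts. With thinned counts it was 23 for night against day and 109 for the cosine, and with the covariate 1446 for HFD against WT averaged over regimens.

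No value that changed sign lay further than 0.21 from 0 on the log2 scale. *CG16704* was at -0.06 in WT, 0.15 in *Sk2* and 0.21 for the difference of TRF effects over all 36 libraries, at 0.07 in *Sk2* with 32 libraries and at 0.01 in *Sk2* with DESeq2's size factors (RLE) in edgeR, without a filter and with DESeq2. *CG11842* in *Sk2* was at 0.08 over all 36 libraries, 0.04 with 32 and 0.01 with the covariate. *CG10157* was at 0.04 (all 36) and 0.01 (32) for the difference of TRF effects. *Cyt-b5-r* between night and day was at 0.05 (all 36), 0.00 (no filter), 0.01 (at least 10 counts) and 0.02 (thinned).

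With each library left out in turn, the number of genes called ran from 0 to 66 for TRF in HFD, 0 to 1 in WT, 2 to 12 in *Sk2*, 0 to 5 for the difference of TRF effects, 12 to 49 for night against day and 117 to 249 for the cosine, where 0 to 1 of the 5 genes passed. *CG16704* ran from -0.03 to 0.28 for TRF in WT, -0.38 to 0.09 in *Sk2*, -0.46 to 0.03 for their difference and -0.01 to 0.17 between night and day. *CG11842* ran from -0.16 to 0.10 for TRF in *Sk2*. *CG10157* ran from -0.20 to 0.05 for the difference of TRF effects and *Cyt-b5-r* from -0.05 to 0.05 between night and day.

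The labels tie samples of different groups by the time of collection alone. With the time point block, which is the paired analysis here, *CG11842* passed between *Sk2* and WT under TRF (0.76, adjusted p = 0.0356), and no other call for the 5 genes changed. The lowest count of any of the 5 genes was 34, for *CG11842* in 1 library.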
